A study of Homo sapiens with 12 samples.

Results

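The 30 genes described here make cholesterol and fatty acids or regulate that synthesis, and they were taken from a given list of sterol pathway genes and targets of the sterol regulatory element binding proteins (SREBPs). A member was found where a gene symbol of the deposited expression table matched the list. All 30 had a value, out of 34595 genes with a value. By role, 7 belong to the mevalonate steps, 11 to the steps from squalene to cholesterol, 4 to sterol regulation and transport, and 8 to fatty acid synthesis and desaturation.

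Gene expression had been profiled in 3 established gastric cancer cell lines, KATO-III, SNU-216 and SNU-601, after fluorescence-activated cell sorting on CD133, the surface protein encoded by PROM1 and used as a stem cell marker. The study asked which genes accompany CD133 in gastric cancer cells. From each untreated line, grown in RPMI1640 with 10% calf serum, a sorting gate of about 10% at the bright end of the CD133 stain gave the CD133+ fraction and one of about 6% at the dim end gave the CD133- fraction, so neither holds cells of intermediate staining. RNA of each of the 6 sorted populations was hybridized to 2 Illumina HumanHT-12 v3 BeadChips, which gives 12 arrays. Each line is a single cell line, and whether the 2 arrays of a population came from separate sorts is not given in the sources used here, so the p-values below measure the spread between arrays, which may be technical.

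Cells build cholesterol from acetyl-CoA through mevalonate, farnesyl diphosphate, squalene and lanosterol. The enzymes are largely controlled together: when sterols in the endoplasmic reticulum are low, the escort protein SCAP carries SREBPs to the Golgi, where they are cleaved and released to the nucleus, and INSIG proteins hold SCAP back when sterols are high. SREBF2 encodes the form tied mainly to cholesterol synthesis, and SREBF1 encodes forms tied mainly to fatty acid synthesis, whose enzymes turn citrate into palmitate, elongate it and insert double bonds.

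The promoters of members that changed alike in more than 1 line, TM7SF2 and HSD17B7, and that of FADS1, which was detected in SNU-216 and below the floor of the assay in the other lines, are shown to set their sequence beside these data. The FADS1 promoter was chosen after its values were seen. The sequences are RefSeq windows on GRCh38.p14 from 250 bases before to 50 bases after the start of the gene, 5′ to 3′ on the strand of the gene, with matches on either strand to CCAAT (also read as ATTGG) and to the GC box GGGCGG (also read as CCGCCC) in capitals. TM7SF2 lies at chr11:65111622-65111921 on the plus strand, HSD17B7 at chr1:162790452-162790751 on the plus strand and FADS1 at chr11:61816954-61817253 on the minus strand.
TM7SF2: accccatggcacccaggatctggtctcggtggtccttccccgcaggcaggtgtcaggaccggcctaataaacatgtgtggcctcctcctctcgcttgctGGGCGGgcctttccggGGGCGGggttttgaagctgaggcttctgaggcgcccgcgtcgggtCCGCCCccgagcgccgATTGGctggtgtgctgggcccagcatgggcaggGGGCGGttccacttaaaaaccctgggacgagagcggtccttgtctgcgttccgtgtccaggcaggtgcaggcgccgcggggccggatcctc
HSD17B7: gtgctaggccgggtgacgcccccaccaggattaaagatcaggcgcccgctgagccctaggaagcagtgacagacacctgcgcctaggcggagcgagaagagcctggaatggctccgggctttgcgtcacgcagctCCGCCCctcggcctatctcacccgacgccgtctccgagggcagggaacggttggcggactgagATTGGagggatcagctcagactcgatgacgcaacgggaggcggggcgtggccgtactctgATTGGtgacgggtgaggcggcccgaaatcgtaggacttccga
FADS1: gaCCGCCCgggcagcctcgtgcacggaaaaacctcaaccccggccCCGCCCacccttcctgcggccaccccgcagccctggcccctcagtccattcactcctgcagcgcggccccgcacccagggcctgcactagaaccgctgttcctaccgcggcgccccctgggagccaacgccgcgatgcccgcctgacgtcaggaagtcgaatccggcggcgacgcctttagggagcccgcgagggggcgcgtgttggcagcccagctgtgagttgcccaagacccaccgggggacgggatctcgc
The TM7SF2 window held 4 GC boxes and 1 CCAAT box, the HSD17B7 window 1 GC box and 2 CCAAT boxes, and the FADS1 window 2 GC boxes and 0 CCAAT boxes.

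A promoter window was found for 26 of the 30 members. The CCAAT box, the sequence bound by NF-Y, was present in 18 of these 26 (69.2%) and in 35.7% of the windows of 27305 genes. The GC box, a sequence bound by SP1, was present in 24 (92.3%) against 44.6% of all windows. A core of the sterol regulatory element, TCACNCCAC, was found in 1 member window (3.85%), that of SREBF2, and in 1.15% of all windows. The E-box CACGTG was found in 3 (11.5%), those of LSS, SC5DL and INSIG1, against 7.43% of all windows. Both strands were searched, none of the 4 strings contains another, and a match is a description of the letters and not evidence of binding.

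The deposited values were quantile-normalized intensities after background subtraction, so that they scatter around 0 for genes that are not expressed. Lower intensities than 32.7, taken as the floor because 1% of the values scattered further below 0 than this, were raised to the floor before log2 was taken. Genes exceeding it on 2 arrays or more were tested, 20147 in all, and single arrays had 16320 to 16474 genes exceeding it. Of the members, 29 were tested and 26 lay above the floor on every array. STARD4, a carrier of cholesterol between membranes, was under the floor on all 12 arrays (-26.3 to 27.1) and was not tested. CYP51A1, FADS1 and FADS2 were above it on some arrays. Levels of different genes are not compared with each other, because probes differ in their response.

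The sort was seen in PROM1, which was higher in CD133+ cells of each line, with log2 differences of 1.10 ± 0.06 in KATO-III, 2.02 ± 0.06 in SNU-216 and 1.85 ± 0.06 in SNU-601 (SE, 2 arrays against 2). All 7 epithelial marker entries, among them EPCAM under its present and an older symbol, were above the floor on every array. All 3 endothelial markers were under it throughout, as were the leukocyte markers PTPRC and CD3E, while CD14 reached 835 to 1242 in KATO-III and CD68 reached 1075 to 1625 in SNU-601.

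Between the lines, most members differed more than between the sorted fractions of a line. The span between the highest and the lowest line mean had a median of 0.85 on the log2 scale over the 29 tested members, and the largest change between fractions in any line had a median of 0.37. For 24 of the 29 the span over lines was the larger of these. Larger differences between lines were not particular to the members. Over all tested genes the median absolute log2 difference was 0.37 to 0.44 between 2 lines and 0.18 to 0.29 between the fractions of a line. The span of line means exceeded 1 for 13 members and 2 for 4, FADS1, ELOVL6, FADS2 and LSS. The plot of all members shows the arrays of a line lying together for most genes.

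**Figure D1:**
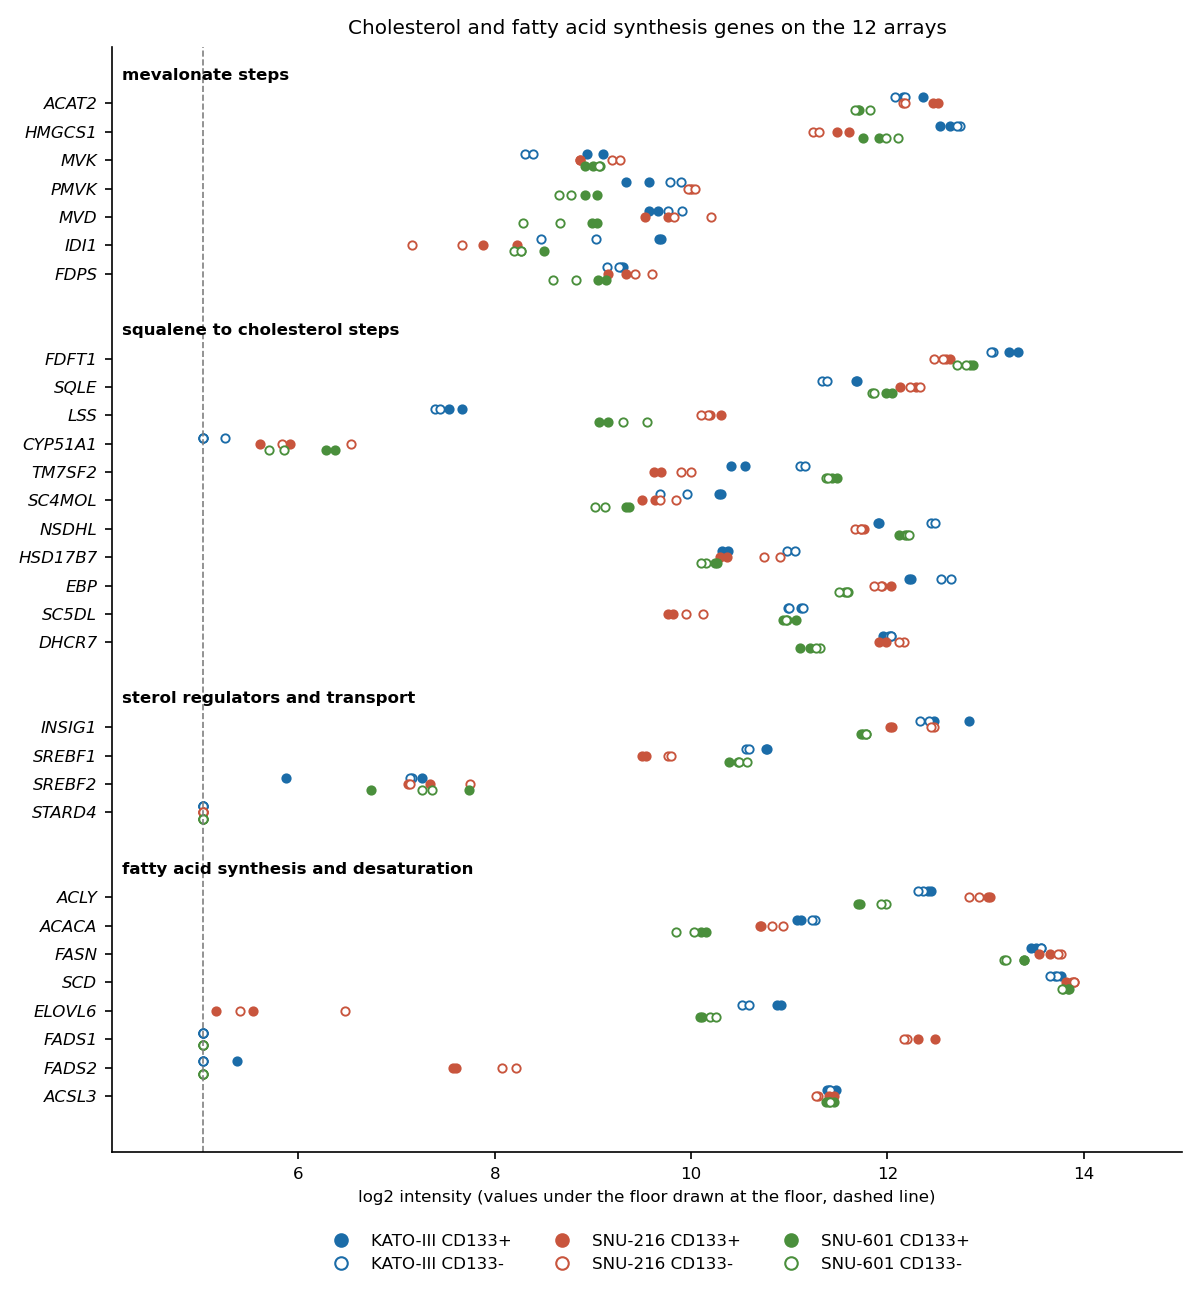
Log2 intensity of the 30 members (vertical axis, grouped by role) on the 12 arrays, with filled points for CD133+ and open points for CD133- arrays, colored by cell line, and values under the floor of 32.7 drawn at the floor (dashed line). STARD4 sits at the floor on all arrays, FADS1 and FADS2 stand well above it only in SNU-216, and LSS is lowest in KATO-III.

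FADS1 and FADS2, which encode the delta-5 and delta-6 desaturases that make polyunsaturated fatty acids and are neighbors on chromosome 11, were detected mainly in SNU-216. FADS1 read 5713 and 5076 in CD133+ and 4686 and 4613 in CD133- cells of SNU-216, against -28.2 to -10.1 in KATO-III and -33.0 to -7.73 in SNU-601. No array of the other lines reached the floor. The mean of the SNU-216 arrays was at least 153-fold above the floor, and so above either line (limma, adjusted p = 1.12e-12 against SNU-601). FADS2 read 191 and 195 in CD133+ and 297 and 270.3 in CD133- cells of SNU-216. It was under the floor on all 4 SNU-601 arrays (1.11 to 22.8) and above it on 1 KATO-III array (41.5, with the others at 7.41 to 26.5). FADS2 in SNU-216 was at least 7.15-fold higher than in SNU-601. The next gene of the same cluster, FADS3, read 43.6 to 86.2 over all 12 arrays, with overlap between the lines.

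ELOVL6, the elongase that extends palmitate, showed the opposite pattern. In KATO-III it read 1930.4 and 1873 in CD133+ and 1468 and 1536 in CD133- cells, and in SNU-601 it read 1094 to 1223. In SNU-216 the 4 arrays read 46.5, 35.9, 89.2 and 42.2, close to the floor and far under every array of the other lines. KATO-III exceeded SNU-216 33.8-fold, a log2 difference of 5.08 ± 0.20 (SE, limma adjusted p = 1.70e-08).

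LSS, lanosterol synthase, which closes the sterol ring, was lowest in KATO-III. Its 4 KATO-III arrays read 168 to 204, its SNU-601 arrays 535 to 749.7 and its SNU-216 arrays 1099 to 1267, with no overlap between lines. The log2 difference between KATO-III and SNU-216 was -2.69 ± 0.07 (adjusted p = 6.88e-10).

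**Figure D2:**
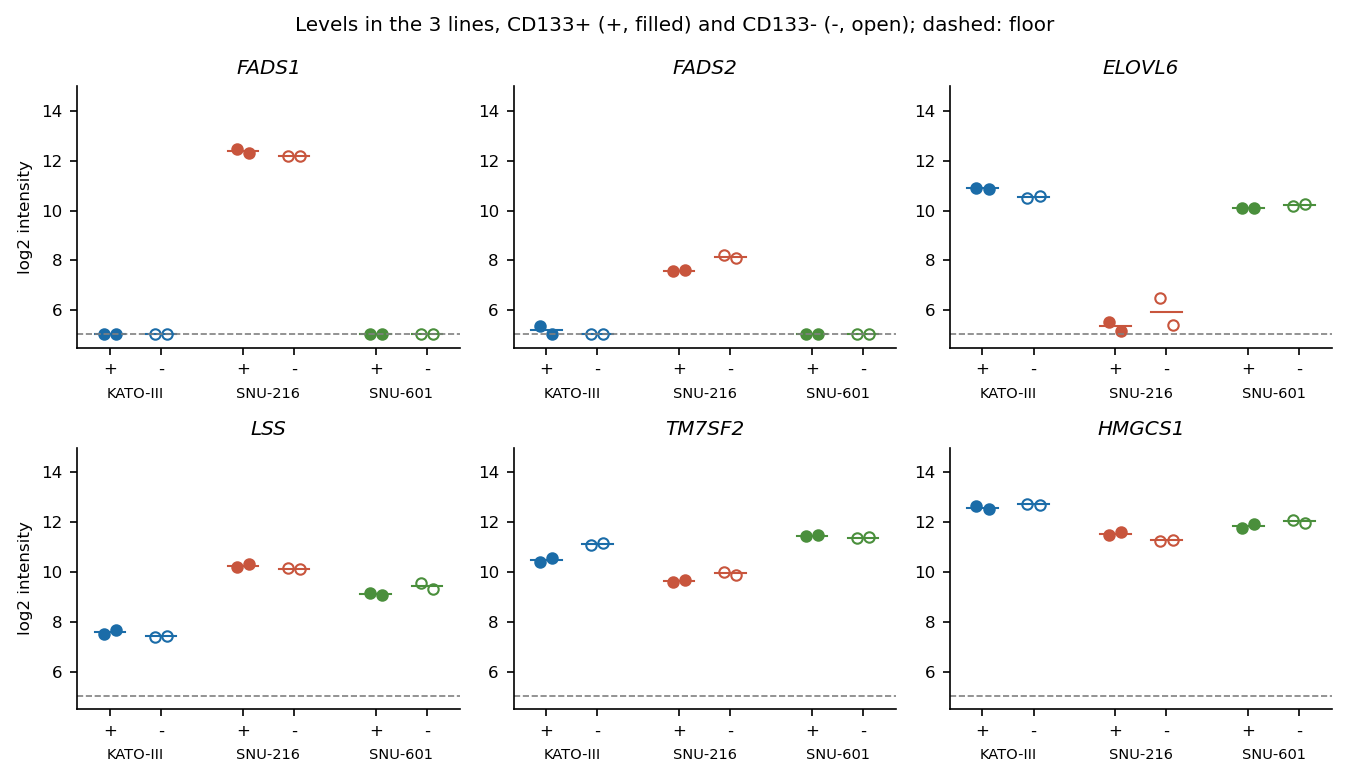
Log2 intensity on each array for 6 members, with CD133+ (filled) beside CD133- (open) for each line, a short line at the mean of the 2 arrays, and a dashed line at the floor of 32.7. FADS1 and FADS2 are highest in SNU-216, ELOVL6 is lowest there, LSS and HMGCS1 take opposite orders between KATO-III and SNU-216, and TM7SF2 is highest in SNU-601.

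The line means were then compared pair by pair. KATO-III was higher than SNU-216 for 12 of the 29 members and lower for 11, where 30.3% and 31.7% of all tested genes were called. KATO-III was higher than SNU-601 for 17 and lower for 6, against 28.7% and 29.9% of all genes. SNU-216 was higher than SNU-601 for 16 and lower for 8, against 29.4% and 27.1%. Thus 16 members were called in all 3 pairs, 11 in 2, and ACSL3 and SREBF2 in none. Calls in several pairs were not counted over all tested genes, so these counts have no background beside them. The comparisons share arrays, and each compares single lines rather than groups of tumors.

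The lowest mean was that of SNU-601 for 13 members, of SNU-216 for 9 and of KATO-III for 6, with FADS1 tied at the floor in KATO-III and SNU-601, and the highest was that of SNU-216 for 14, of KATO-III for 13 and of SNU-601 for 2. Among the fatty acid genes, ACLY, the enzyme that splits citrate into acetyl-CoA, read 7307 to 8431 in SNU-216, 5088 to 5550.0 in KATO-III and 3335 to 4041 in SNU-601, with no overlap. ACACA, the rate-limiting acetyl-CoA carboxylase, read 2164 to 2460.1 in KATO-III, 1668 to 1957 in SNU-216 and 919 to 1134 in SNU-601. The lines were likewise apart for ACACA. SCD, the delta-9 desaturase, differed little, with line ranges from 12922 to 15313 and a span of 0.16 on the log2 scale. ACSL3, which activates long-chain fatty acids, spanned 0.07.

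In the early mevalonate steps, HMGCS1, the synthase that forms HMG-CoA, was highest in KATO-III (5939 to 6834), lower in SNU-601 (3449.9 to 4409) and lowest in SNU-216 (2424 to 3112). IDI1, the isopentenyl diphosphate isomerase, had the same order of line means and a span of 1.49. PMVK and MVD, the kinase and the decarboxylase that follow MVK, were lowest in SNU-601, at 403 to 525 and 312 to 528. In the later steps, TM7SF2, a sterol reductase, was highest in SNU-601 (2647 to 2868) and SC5DL, the lathosterol oxidase, was lowest in SNU-216 (871 to 1109.7 against 1960.1 to 2253 in the other lines).

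The comparison the study was designed for is that of CD133+ with CD133- cells. In KATO-III, 7 of the 29 tested members were higher in CD133+ cells and 5 were lower by limma at an adjusted p under 0.05, where 18.7% of all tested genes were higher and 20.6% lower. The higher members were IDI1, MVK, SC4MOL, SQLE, INSIG1, FDFT1 and SREBF1, and the lower ones HSD17B7, TM7SF2, NSDHL, PMVK and EBP. Within the sterol pathway the changes ran in both directions, as they did over all tested genes. The 12 calls among 29 members lay near the 39.3% of all tested genes called in this line. None of the 8 fatty acid genes passed the test. The median change of the tested members was 0.02 on the log2 scale against 0 for all tested genes. In bulk RNA of a sorted population, fewer cells of a type and less RNA per cell cannot be told apart.

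IDI1 and MVK, the mevalonate kinase, had the largest increases in KATO-III. IDI1 read 819 and 827 in CD133+ cells and 524 and 355 in CD133- cells. The CD133- arrays differed more from each other than the CD133+ arrays did, and both lay lower. The log2 difference was 0.93 ± 0.22 (SE, adjusted p = 0.00821). MVK read 492 and 548 in CD133+ against 317 and 336 in CD133- cells, again without overlap, a difference of 0.67 ± 0.07 (adjusted p = 0.000114). Without the second CD133- array the IDI1 call was lost (adjusted p = 0.0614).

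HSD17B7 and TM7SF2, both reductases of the late pathway, had the largest decreases. HSD17B7 read 1328 and 1278 in CD133+ and 2018 and 2129.6 in CD133- cells of KATO-III, so that the CD133- arrays were the highest. The log2 difference was -0.67 ± 0.06 (adjusted p = 4.47e-05). TM7SF2 read 1353 and 1503 in CD133+ and 2202 and 2294 in CD133- cells, a difference of -0.66 ± 0.06 (adjusted p = 5.62e-05). NSDHL, which acts with SC4MOL in removing methyl groups from the sterol ring, read 3852 and 3819 in CD133+ and 5560.5 and 5729.8 in CD133- cells and fell by 0.56 on the log2 scale (adjusted p = 1.41e-05). SC4MOL itself, the methyl sterol oxidase, was higher in CD133+ cells by 0.48 ± 0.10 (adjusted p = 0.00406). SC4MOL and NSDHL thus moved in opposite directions.

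EBP, the sterol isomerase, was lower in KATO-III CD133+ cells by a log2 difference of -0.37 ± 0.05, and PMVK, the phosphomevalonate kinase, by -0.39 ± 0.09. SQLE, squalene epoxidase, was higher by 0.32 ± 0.06 and FDFT1, squalene synthase, by 0.22 ± 0.05. The call was lost for FDFT1 without CD133+ replicate 1 (adjusted p = 0.0576) and for PMVK without CD133+ replicate 1 or CD133- replicate 2 (up to 0.0544). INSIG1, the retention protein, was higher by 0.27 ± 0.10, with an adjusted p of 0.0495 that stayed under 0.05 in 1 of 12 fits that left out 1 array (difference from 0.09 to 0.45). On the 2 CD133+ arrays INSIG1 read 5679 and 7293 and on the CD133- arrays 5148 and 5509. HSD17B7 has a close pseudogene copy, HSD17B7P2, and which of them its probes read is not given in the sources used here.

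**Figure D3:**
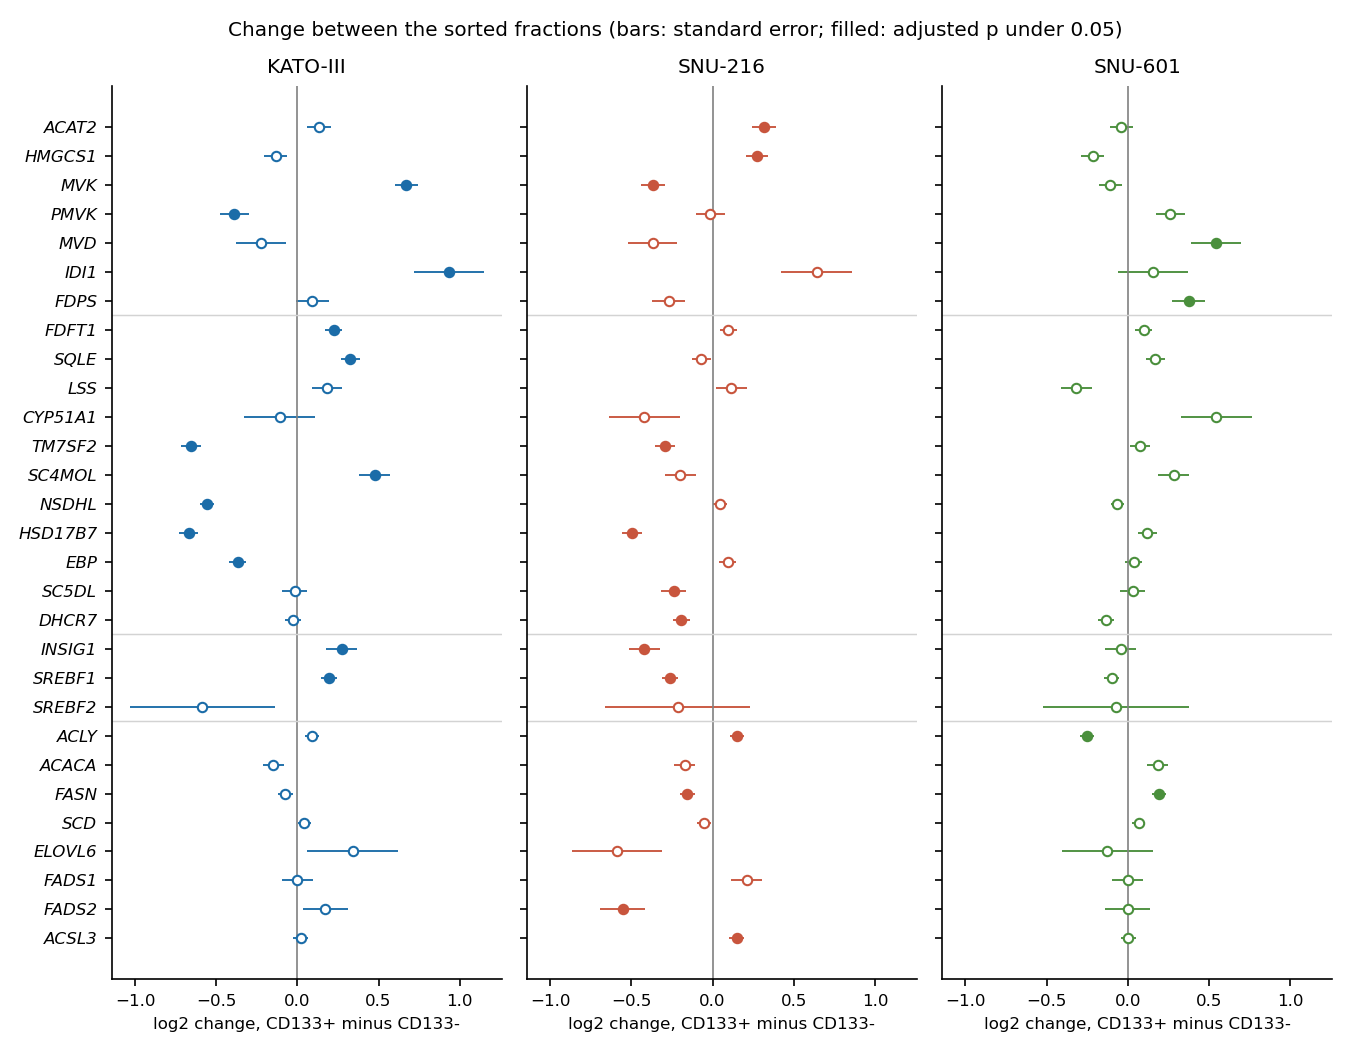
Log2 change from CD133- to CD133+ cells (horizontal axis, bars for the standard error) of the 29 tested members in KATO-III, SNU-216 and SNU-601, filled where the adjusted p was under 0.05, with lines between the 4 roles. KATO-III and SNU-216 have filled points on both sides of 0 (7 higher and 5 lower, 4 higher and 9 lower), and SNU-601 has 4 filled points.

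In SNU-216, 4 members were higher in CD133+ cells and 9 were lower, where 14.6% and 14% of all tested genes were called. The 4 higher members were ACAT2 and HMGCS1, which form the first intermediates of the pathway, and ACLY and ACSL3. The lower ones were MVK, TM7SF2, HSD17B7, SC5DL, DHCR7, INSIG1, SREBF1, FASN and FADS2. SC5DL had a log2 difference of -0.24, and its call held in 4 of 9 alternative runs of the processing. DHCR7 had one of -0.19, and its call held in 8 of 9. The median change over the tested members was -0.17 against 0 for all tested genes, with no test of that difference.

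ACAT2, the cytosolic thiolase, read 5639 and 5851 in CD133+ and 4580.4 and 4638 in CD133- cells of SNU-216. The fractions did not overlap, and the log2 difference was 0.32 ± 0.07 (adjusted p = 0.0102). HMGCS1 read 2865 and 3112 in CD133+ against 2424 and 2518 in CD133- cells, a difference of 0.27 ± 0.07 (adjusted p = 0.0179). All 4 calls toward higher levels were lost without CD133+ replicate 2 of SNU-216, with adjusted p reaching 0.0619 for ACAT2 and 0.115 for HMGCS1 among the fits without 1 array.

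HSD17B7 was again among the largest decreases, at 1319 and 1256 in CD133+ and 1918 and 1715 in CD133- cells of SNU-216, a log2 difference of -0.49 ± 0.06 (adjusted p = 0.000441). FADS2 fell by 0.55 on the log2 scale from the CD133- to the CD133+ values given above (adjusted p = 0.0157), and its neighbor FADS1 had a difference of 0.21 ± 0.10 that did not pass the test. TM7SF2 read 786 and 828 in CD133+ and 1024 and 953 in CD133- cells, a difference of -0.29 ± 0.06 (adjusted p = 0.00749). MVK read 466 and 467 in CD133+ against 584 and 620.1 in CD133- cells, with a difference of -0.37 ± 0.07 (adjusted p = 0.00509). The calls of HSD17B7 and MVK held without each array, that of TM7SF2 was lost without replicate 1 of either SNU-216 fraction (adjusted p up to 0.0535), and that of FADS2 without either CD133+ array or CD133- replicate 1 (up to 0.0718).

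The regulators INSIG1 and SREBF1 were both lower in CD133+ cells of SNU-216. INSIG1 read 4226 and 4172 in CD133+ and 5670.0 and 5563 in CD133- cells, a log2 difference of -0.42 ± 0.10 (adjusted p = 0.0102), and its call was lost without CD133+ replicate 2 or CD133- replicate 1 (up to 0.0570). SREBF1 read 726 and 743 against 869 and 890.1, a difference of -0.26 ± 0.05 (adjusted p = 0.00407). In KATO-III the same gene was higher in CD133+ cells, at 1754 and 1735 against 1504 and 1544, a call lost without replicate 1 of either KATO-III fraction (adjusted p up to 0.0651). SREBF2 read 58.6 to 216 over all arrays, with overlapping fractions in each line, and was called in none.

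Fewer members passed the test in SNU-601. There, 3 were higher in CD133+ cells, MVD, FDPS and FASN, and 1, ACLY, was lower, where 8.59% and 7.78% of all tested genes were called. MVD, the mevalonate diphosphate decarboxylase, read 508 and 528 in CD133+ and 406 and 312 in CD133- cells, a log2 difference of 0.54 ± 0.15 (adjusted p = 0.0423). FDPS, farnesyl diphosphate synthase, read 560.2 and 530.1 against 455 and 387, a difference of 0.38 ± 0.10 (adjusted p = 0.0365). The fractions did not overlap for either gene, but both calls were lost with the replicate number as a block and in limma without a mean-variance trend, where 0 members were higher. With 1 array left out, the MVD call held in 3 of 12 fits (adjusted p up to 0.224, log2 difference from 0.35 to 0.73) and the FDPS call in 7 (up to 0.194, from 0.26 to 0.49).

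ACLY and FASN, which stand at either end of the route from citrate to palmitate, moved in opposite directions in SNU-601. ACLY read 3335 and 3364 in CD133+ and 4041 and 3918 in CD133- cells, a log2 difference of -0.25 ± 0.04 (adjusted p = 0.00566). FASN, fatty acid synthase, read 10723 and 10719 against 9332 and 9432, a difference of 0.19 ± 0.05 (adjusted p = 0.0218). The ACLY call held without each array, and the FASN call was lost without any one of the 4 SNU-601 arrays (adjusted p up to 0.0924). Both genes took the other direction in SNU-216, where ACLY read 8333 and 8431 in CD133+ against 7307 and 7834 in CD133- cells and FASN read 12934 and 11913 against 13936 and 13696. There the ACLY call was lost without either CD133+ array or CD133- replicate 1 (adjusted p up to 0.172), and the FASN call without CD133+ replicate 2 or either CD133- array (up to 0.189), with differences as small as 0.10 and -0.10 among the fits without 1 array.

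**Figure D4:**
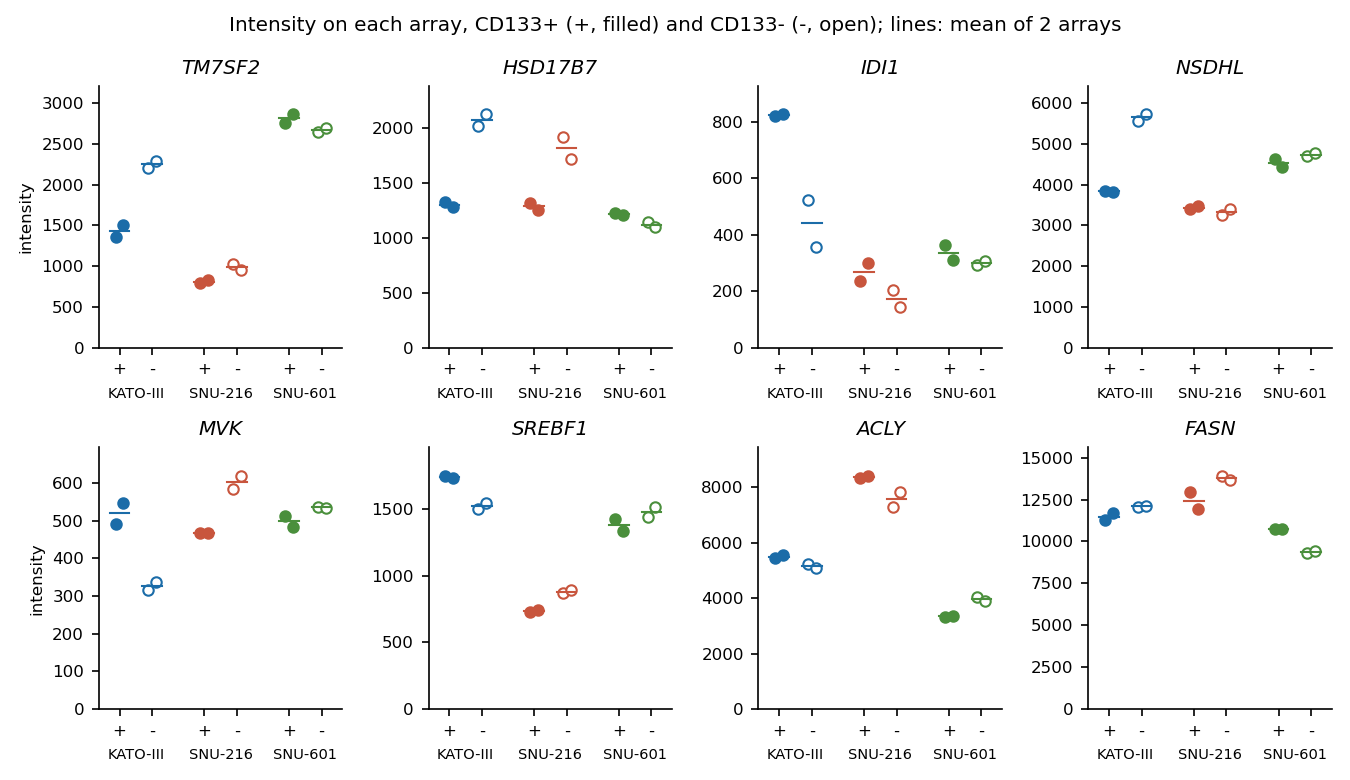
Intensity on a linear axis from 0 of 8 members on each array, CD133+ (filled) beside CD133- (open) for each line, with a short line at the mean of the 2 arrays. TM7SF2 and HSD17B7 are lower in CD133+ cells of KATO-III and SNU-216 and not of SNU-601, while MVK and SREBF1 are higher in CD133+ cells of KATO-III and lower in those of SNU-216.

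Whether a member changed by a different amount in the 3 lines was tested by the interaction of line and fraction. It passed for 18 of the 29 members, where 44.4% of all tested genes passed. These were HMGCS1, MVK, PMVK, MVD, FDPS, SQLE, LSS, TM7SF2, SC4MOL, NSDHL, HSD17B7, EBP, INSIG1, SREBF1, ACLY, ACACA, FASN and FADS2. The smallest adjusted p were those of NSDHL (0.000136) and MVK (0.00017).

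No member was called in all 3 lines. Of the 29, 7 were called in 0 lines, 15 in 1 and 7 in 2. Among the last 7, MVK, INSIG1, SREBF1, ACLY and FASN had opposite signs in the 2 lines, and only TM7SF2 and HSD17B7 had the same sign. In SNU-601, TM7SF2 read 2762 and 2868 in CD133+ and 2647 and 2699 in CD133- cells, and HSD17B7 read 1227 and 1212 against 1140.2 and 1101. Their log2 differences there were 0.07 ± 0.06 and 0.12 ± 0.06 and did not pass the test. The same sign in all lines was seen for 5 members, IDI1, FDFT1, DHCR7, SREBF2 and ACSL3. Of all tested genes, 39.3% were called in KATO-III, 28.6% in SNU-216 and 16.4% in SNU-601. Their calls and signs were not counted across lines, so the counts in this paragraph do not set the members apart from other genes.

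Across the 29 members, the changes in KATO-III and SNU-216 had a Pearson correlation of 0.20, those in KATO-III and SNU-601 of -0.09 and those in SNU-216 and SNU-601 of -0.24. These are descriptions across genes, which are not independent replicates, and genes at the floor count as 0. The plot of paired changes shows the members called in both lines of a pair.

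**Figure D5:**
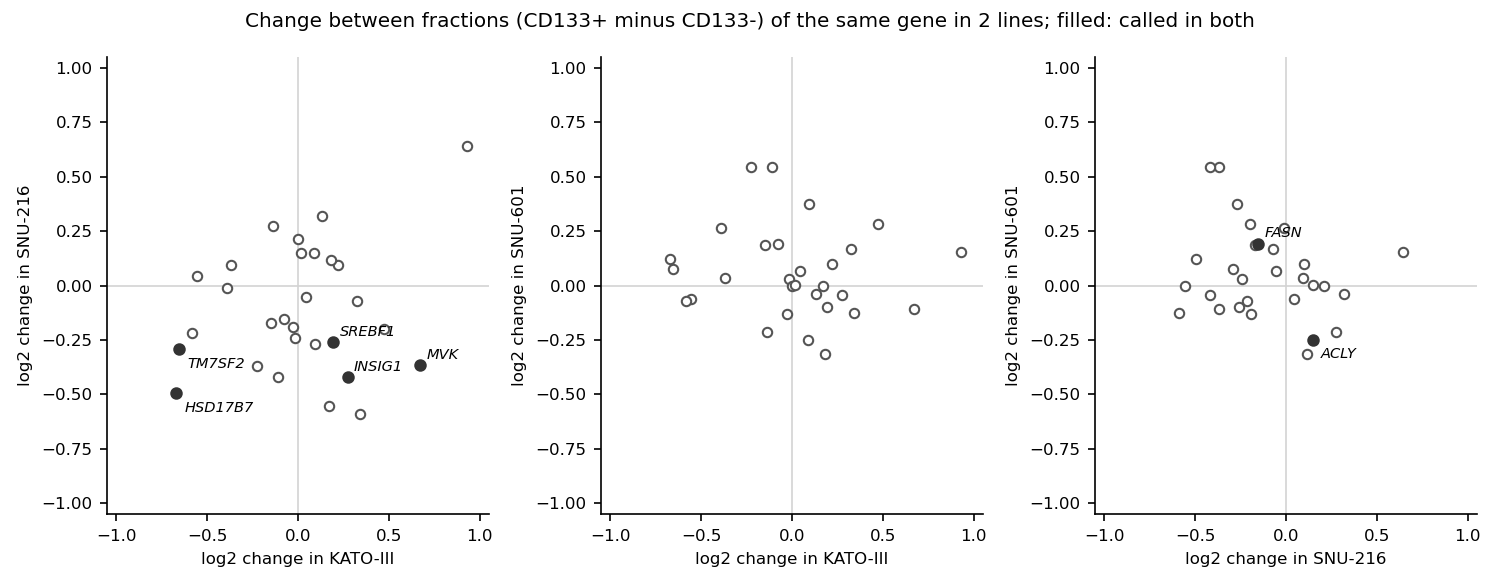
Log2 change from CD133- to CD133+ cells of each tested member in one line (horizontal axis) against another (vertical axis), for the 3 pairs of lines, with members called in both lines filled and named. TM7SF2 and HSD17B7 lie in the lower left of the first panel, and the other 5 named genes lie in quadrants of opposite sign.

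Over all lines together, with cell line as a block, 0 of the 29 members were called in either direction by limma, where 2.62% of all tested genes were higher and 2.11% lower. An unadjusted p under 0.05 was reached by 6 of the 29 members and by 4941 of all 20147 tested genes, so the members did not stand out. The smallest adjusted p of a member was 0.059, that of IDI1, with a log2 difference of 0.58 ± 0.16. IDI1 read higher in CD133+ than in CD133- cells in each line, at 235 and 300.1 against 203 and 143 in SNU-216 and 362 and 309 against 292 and 308 in SNU-601. HSD17B7 had a difference of -0.35 ± 0.11 (adjusted p = 0.0985) and FDFT1 one of 0.14 ± 0.04 (adjusted p = 0.0848).

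The signal-to-noise ratio (SNR), the difference of the means of the 6 CD133+ and 6 CD133- arrays over the sum of their SDs, is the measure named in the methods of the study, with limits of 1 and -1. On linear intensities it ranged over the tested members from -0.81 (HSD17B7) to 0.53 (ACSL3), so that 0 members passed either limit. Of all 20147 tested genes, 118 were above 1 and 95 below -1. No test goes with this ratio, and the differences between lines enter its SDs.

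Other gene groups moved with the fractions, and their part in the results above was not tested. The shares of all tested genes called in each line, given above for the members, are the background of these counts, at 18.7% higher and 20.6% lower in KATO-III, 14.6% and 14% in SNU-216, and 8.59% and 7.78% in SNU-601. Of 10 proliferation genes, 7 were higher in CD133+ cells of KATO-III, 3 in SNU-216 and 6 in SNU-601, with 0 lower in any line. Their summed intensity was 51068 to 51210 in CD133+ against 37609 to 39029 in CD133- cells of KATO-III, 58770.4 to 62474 against 54060 to 54131 in SNU-216, and 44174 to 45039 against 35287 to 35937 in SNU-601. Of 6 genes of the response to stress and cell sorting, 5 were lower in CD133+ cells of KATO-III, 3 were higher in SNU-216, and 1 was higher and 2 were lower in SNU-601. Their sum was 18135 to 18744 in CD133+ against 28577 to 30013 in CD133- cells of KATO-III, and the 2 fractions of SNU-216 overlapped. Of 5 leukocyte markers, 3 of which were tested, 2 were lower in KATO-III, 1 in SNU-216 and 1 in SNU-601, where 1 was higher. The sums were 884 to 921 against 1299 to 1344 in KATO-III, 206 to 218 against 424 to 469 in SNU-216 and 1148 to 1279 against 1612 to 1679 in SNU-601. CD14 made up most of the sum in KATO-III, and CD68 in SNU-216 and SNU-601. Of 5 fibroblast markers 1 was tested, and it was higher in CD133+ cells of KATO-III, at a sum of at most 201 over all arrays. Of 4 adipocyte markers, 3 of which were tested, 2 were lower there and 1 in SNU-601. Their sums were 55.9 to 89.6 in CD133+ against 112 to 141 in CD133- cells of KATO-III and 85.1 to 119 against 130.1 to 131 in SNU-601. Near the floor of 32.7 in KATO-III, the called fibroblast marker read 20.6 to 67.1 and the called adipocyte markers 2.57 to 60.3.

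Of 19 other genes of the sterol pathway, all tested, 4 were higher and 5 lower in CD133+ cells of KATO-III, 7 higher and 2 lower in SNU-216, and 3 higher and 0 lower in SNU-601. The shares of all tested genes called in each line, as in the paragraph above, stand beside these counts. In KATO-III, SCAP, the SREBP escort, fell by 0.71 and ACSS2, which makes acetyl-CoA from acetate, by 0.93 on the log2 scale. SCAP was higher in CD133+ cells of SNU-601, at 3108 and 3495 against 2786 and 2837, a call that held in 5 of 9 alternative runs of the processing. Its log2 difference in SNU-601 ranged from 0.14 to 0.31 among the fits without 1 array, and the call did not hold without each array. SOAT1, which esterifies cholesterol, was higher in CD133+ cells of KATO-III by 0.63 ± 0.19 and of SNU-216 by 0.61 ± 0.19, calls that held in 9 and 4 of 12 fits without 1 array. In SNU-216, MBTPS2, a protease that cleaves SREBPs, was higher by 0.79 ± 0.25 (adjusted p = 0.0465), at 109.8 and 117 in CD133+ against 47.3 and 91.1 in CD133- cells. The first CD133- array stood far below the other, the difference was 0.32 without it, and the call held in 1 of 12 fits that left out 1 array. In SNU-601, AACS, which activates acetoacetate, was higher by 0.46 ± 0.10, a call that held in 10 of the 12 fits. AACS was lower in CD133+ cells of KATO-III, at 290 and 277 against 414 and 451, a call that held in 9 of 9 alternative runs of the processing. Over all lines 1 of the 19 was called, LBR, which shares the reductase step with TM7SF2, at a log2 difference of 0.31 ± 0.07 (limma adjusted p = 0.0317). LBR was higher by 0.26 ± 0.05 in KATO-III and 0.50 ± 0.05 in SNU-216, and its difference of 0.18 ± 0.05 in SNU-601 did not pass the test (adjusted p = 0.0529). The LBR call over all lines held in 4 of 12 fits that left out 1 array, and was lost with the arrays of a population averaged (adjusted p = 0.796) or with population as a random block (0.236). PROM1, the sorted marker, was not called in the averaged run either (limma adjusted p = 0.796), so the loss there does not single out LBR.

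Of 20 tested genes among 24 others of fatty acid and glycerolipid synthesis, 7 were higher and 4 lower in CD133+ cells of KATO-III, 3 higher and 3 lower in SNU-216, and 3 higher and 1 lower in SNU-601, beside the same shares of all tested genes. In KATO-III, ME1, the malic enzyme that supplies NADPH, read 1703 and 1709.7 in CD133+ against 745 and 553 in CD133- cells, a log2 difference of 1.41 ± 0.18 (adjusted p = 0.000256). MLXIPL, the carbohydrate-responsive transcription factor ChREBP, read 175 and 179 against 719 and 713 there and fell by 2.01 on the log2 scale (adjusted p = 1.47e-05). SCD5 and ELOVL5, a desaturase and an elongase, were higher in CD133+ cells of SNU-216 by 0.76 ± 0.11 and 0.62 ± 0.12. Over all lines PTPLB, a dehydratase of fatty acid elongation, was called, at 0.52 ± 0.11 (adjusted p = 0.0259). That call held in 7 of 12 fits without 1 array, and was lost with averaged populations (adjusted p = 0.796) or population as a random block (0.201). The loss with averaged populations does not single out PTPLB, since PROM1 was lost there too.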

How the data were processed

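Expression was measured on 12 arrays, 2 for each CD133 fraction of 3 gastric cancer cell lines, and samples were grouped by their labels. The authors deposited one table of quantile-normalized intensities on a linear scale, with BeadStudio named in the submitters' processing notes. A background had been subtracted, since 32.1% of the values were at or below 0. The way several probes of one gene became 1 value, and the chip positions, are not given in the sources used here. Of 34688 genes and controls in the table, 34595 had a value.

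Intensities were raised to the floor of 32.7 (absolute 1st percentile) where lower, and log2 was taken. The 20147 genes (58.2%) that exceeded it on 2 or more arrays entered limma 3.58.1 under R 4.3.3 (mean-variance trend, Benjamini-Hochberg over all tested genes, threshold 0.05). Changes within lines, their interaction with line, and line means came from one model of the 6 population means (6 residual degrees of freedom), and the change over all lines from a model with line as a block (8). An error after ± is a standard error of a log2 difference. A level against a line under the floor on every array is a bound, computed against the floor. The median SD between the arrays of a population was 0.13 on the log2 scale, and the number of arrays limits the precision.

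The members and the gene lists were chosen with earlier results of these data known. Values on all arrays were given for members called in the same direction in at least 2 lines and for the 2 largest called changes in each direction in each line. Those of NSDHL, INSIG1, SREBF1, FASN, FADS1, ELOVL6, LSS, ME1, MLXIPL and SOAT1 were given after their values were seen. The same holds for the ranges of FADS3, CD14, CD68 and the called fibroblast and adipocyte markers. Of the other lists, genes were named only among the largest called changes of a list, or over all lines, and some list genes are counted but not reported by name here. Alternatives were other floors, an offset, median centring, repeated quantile normalization, other filters, limma without a trend, the replicate number as a block, averaged populations, population as a random block, and each array left out. Scripts were tested on simulated data. Promoter windows came from RefSeq (GRCh38.p14), the first window of a gene. Figures were drawn in Python 3.11.15 with matplotlib 3.10.9.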

Additional observations from a re-analysis of the deposited data

Results flagged for a closer look

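The change from CD133- to CD133+ cells differed between the 3 lines for 18 members, by an F-test in limma of the line-by-fraction interaction with Benjamini-Hochberg adjustment over all 20147 tested genes. In the mevalonate steps the adjusted p was 0.00698 for HMGCS1, 0.00017 for MVK, 0.0072 for PMVK, 0.0149 for MVD and 0.0158 for FDPS. In the steps from squalene to cholesterol it was 0.0113 for SQLE, 0.0254 for LSS, 0.000616 for TM7SF2, 0.00831 for SC4MOL, 0.000135 for NSDHL, 0.000278 for HSD17B7 and 0.00165 for EBP. For the regulators it was 0.00805 for INSIG1 and 0.00204 for SREBF1. For the fatty acid genes it was 0.00154 for ACLY, 0.0189 for ACACA, 0.00503 for FASN and 0.0314 for FADS2. LSS and ACACA were among them although neither was called within a line. LSS had log2 differences of 0.18 in KATO-III, 0.12 in SNU-216 and -0.32 in SNU-601, and ACACA had differences of -0.15, -0.17 and 0.19. Of the 18 calls, 13 were made under every alternative and without each array. Those of MVD, LSS and FADS2 were lost with all genes with a value tested, and that of FADS2 also with a floor of 16. The other 5, MVD, FDPS, LSS, ACACA and FADS2, were each lost without 1 of several arrays, with adjusted p up to 0.0548, 0.0548, 0.0927, 0.0701 and 0.0852.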

How the results depend on the processing

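The refitted called values were pooled over the changes between fractions, their interaction with line, and the line pairs. No called difference of a member changed sign under any alternative run, while the F-test of the interaction gives no sign. Of the 2447 refitted called values, 140 fell short of the threshold. Calls between fractions were kept less often than those between lines, as the counts that follow show. Values not called at first are not counted here. Members called under every alternative and without each array were 7 of 12 in KATO-III, 3 of 13 in SNU-216 (MVK, HSD17B7 and SREBF1) and 1 of 4 in SNU-601 (ACLY), and 22 of 23, 21 of 23 and 24 of 24 in the line pairs KATO-III with SNU-216, KATO-III with SNU-601 and SNU-216 with SNU-601. In limma without a trend, 2 members were higher in SNU-216 and 0 in SNU-601. With all genes with a value tested, 1 was higher in SNU-601. The members lower in SNU-601 were 2 with a floor of 100, 2 with an offset of 100 and 3 with only genes above the floor on all arrays tested. Over all lines, 1 member was higher under each of these. Of all tested genes, 26.8% were called in SNU-601 with a floor of 100 and 16.2% with the offset, against 16.4% in the main run. Over all lines, 8.2% were called with a floor of 100, against 4.73% in the main run. The other counts of members in this paragraph have no such share beside them. Leaving out each array in turn gave 5 to 7 higher and 4 to 6 lower members in KATO-III, 0 to 4 and 4 to 10 in SNU-216, 0 to 4 and 1 to 2 in SNU-601, 15 to 19 with a difference between lines, 0 to 1 higher and 0 lower over all lines, and 0 to 1 with an SNR below -1. The 0 in SNU-216 came without CD133+ replicate 2 and its 4 lower members without CD133- replicate 1, and the 0 in SNU-601 came without CD133+ replicate 1 or 2 or CD133- replicate 2. In the line pairs the ranges were 12 to 13 and 10 to 11 for KATO-III against SNU-216, 16 to 17 and 5 to 7 for KATO-III against SNU-601, and 16 and 8 for SNU-216 against SNU-601. The cause of these changes was not tested. With the replicate block, 7 members were higher and 5 lower in KATO-III, 3 and 8 in SNU-216, 2 and 1 in SNU-601, and 18 differed between lines. Same-numbered arrays had deviations correlated at 0.03 in KATO-III, 0.01 in SNU-216 and -0.01 in SNU-601. These values show no shared deviation but cannot tell whether same-numbered arrays came from the same sort, which is not given. Over all lines, averaging the 2 arrays of a population called 0 genes (smallest adjusted p of a member 0.796), and population as a random block gave a smallest adjusted p of 0.334, with 0 members called. Genes near the floor, FADS2, CYP51A1 and ELOVL6 in SNU-216, have folds that depend on the floor, and 2 arrays a population limit what the tests can show.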

Other observations

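The liver X receptors are nuclear receptors that sense oxysterols and turn on genes that export cholesterol or limit its uptake. Of a list of 6 genes of this system, the receptors NR1H2 and NR1H3 included, 4 were lower and 0 higher in CD133+ cells of KATO-III by limma at an adjusted p under 0.05, where 20.6% and 18.7% of all tested genes were called. ABCA1, the cholesterol exporter, read 250.3 and 249 in CD133+ and 719.5 and 645 in CD133- cells there, a log2 difference of -1.45 ± 0.11 (adjusted p = 1.95e-05). MYLIP, a ubiquitin ligase that degrades a lipoprotein receptor, read 1042 and 1044 against 2644 and 2754, a difference of -1.37 ± 0.07 (adjusted p = 1.69e-06). In SNU-216 ABCA1 was under the floor on all 4 arrays, and MYLIP was higher in CD133+ cells by 0.21 ± 0.07 (adjusted p = 0.0463) and NR1H3 lower, at -0.24 ± 0.06 (adjusted p = 0.0119). The MYLIP call there held in 4 of 12 fits that left out 1 array, and that of NR1H3 in 10. In SNU-601 ABCA1 read 173 and 194 against 279.6 and 252, a difference of -0.54 ± 0.11 (adjusted p = 0.0136), which passed in 10 of the 12 fits. The difference between lines, which passed the test for 44.4% of all tested genes, did so for 3 of the 6, ABCA1 (adjusted p = 0.000366), MYLIP (1.14e-05) and NR1H3 (0.000308).

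Other fatty acid genes were also detected in some lines and not in others. ELOVL5, which elongates the products of FADS1 and FADS2, read 511 to 870.0 in SNU-216 and was under the floor on all 8 arrays of the other lines. SCD5, a second stearoyl-CoA desaturase, read 901 to 1607 in SNU-216 and was likewise under the floor on the arrays of KATO-III and SNU-601. ACSL5, an acyl-CoA synthetase, was under the floor in SNU-216 and read 2508 to 2929 in the other lines, and ACACB, the second acetyl-CoA carboxylase, was under it in SNU-216 and read 224 to 350.5 elsewhere. ME1 was under the floor on all 4 arrays of SNU-601. These levels are single-line descriptions, and the genes were chosen after their values were seen.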
